A study of Rattus norvegicus with 6 samples.

Results

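The cytosolic ribosomal protein genes encode the proteins of the large subunit (Rpl), the small subunit (Rps) and the acidic stalk (Rplp0, Rplp1 and Rplp2) of the ribosome. Members were taken as every gene whose probe accession maps to a symbol of Rpl or Rps followed by a digit, or to Rpsa or a stalk gene. Rps6k kinases and predicted -ps or -like loci were left out, and the rule itself uses names alone. RefSeq holds 83 such symbols. Of these, 76 had a probe on the array, and all 76 passed the filter on dim probes, among 31637 genes tested. They comprise 43 large subunit genes, 30 small subunit genes and 3 stalk genes, and 3 of the 76 are paralogs of other members (Rpl3l, Rpl22l1 and Rps4y2). Symbols matched by no probe were not analysed here.

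The samples were renal cortex from 6 male Sprague-Dawley (Crl:CD(SD)) rats bought at 5 weeks of age, each hybridised to its own 1-colour Agilent array. Corn oil, the vehicle, was given to 3 animals over 4 weeks. Tricresyl phosphate (TCP below), a mixture of organophosphate esters found in hydraulic fluids, plastics and flame-retardant materials, was given to the other 3 at 200 mg/kg/day over the same 4 weeks. The comparison asks which transcripts of the cortex differ after TCP, at a single dose and time. Levels are log2 signals relative to the 75th percentile of the same array, and a difference is TCP minus corn oil on that log2 scale.

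Each cytosolic ribosome carries 1 copy of nearly every one of these proteins on a scaffold of ribosomal RNA, and only the stalk proteins Rplp1 and Rplp2 are present in several copies. Their mRNAs are among the most abundant of most cells, and many begin with a C followed by a run of pyrimidines, the terminal oligopyrimidine (TOP) tract through which the mTORC1 kinase controls their translation. The cortex consists mainly of proximal tubule, whose cells use their ribosomes to maintain a dense supply of transporters and mitochondria.

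RefSeq promoter windows (build GRCr8), each with 250 bases before and 50 after the annotated start, were found for 62 of the 76 members. The 1 member with several windows, Rps27a, was left out, which left 61. The 30 bases around the start, 15 on each side, are shown for members that the results below turn on, with the transcript beginning at base 16. Capitals mark a run of at least 5 pyrimidines that begins with C exactly at that start, and a sequence without capitals has no such run there.
Rps26: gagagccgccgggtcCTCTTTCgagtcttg
Rpl37a: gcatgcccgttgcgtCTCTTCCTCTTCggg
Rplp0: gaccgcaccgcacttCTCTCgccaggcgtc
Rplp1: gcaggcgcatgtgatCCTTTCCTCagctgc
Rpl35: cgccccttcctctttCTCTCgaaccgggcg
Rpl19: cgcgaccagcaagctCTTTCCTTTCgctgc
Rpl22: gtagtgcgcccccctCCCTTTCTgcctcct
Rpl22l1: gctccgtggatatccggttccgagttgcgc
Rpl3: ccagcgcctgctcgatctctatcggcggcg
Rpl3l: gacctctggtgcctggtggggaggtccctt
Rps4x: tccagcgcgcgcagcctccgaccctaattt
Rps4y2: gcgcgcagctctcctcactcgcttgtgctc
Rps19: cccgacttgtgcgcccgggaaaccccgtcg
Rps2: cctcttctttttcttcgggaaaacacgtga
Rps26 lies at chr7:1643390-1643419 (minus strand), Rpl37a at chr9:81748076-81748105 (plus), Rplp0 at chr12:46718376-46718405 (minus) and Rplp1 at chr8:71290858-71290887 (minus). Rpl35 lies at chr3:43165907-43165936 (minus), Rpl19 at chr10:83519049-83519078 (plus), Rpl22 at chr5:168117946-168117975 (plus) and its paralog Rpl22l1 at chr2:113683181-113683210 (plus). Rpl3 lies at chr7:113507976-113508005 (minus), Rpl3l at chr10:14258431-14258460 (plus), Rps4x at chrX:71342907-71342936 (minus) and Rps4y2 at chr4:183000898-183000927 (plus). Rps19 lies at chr1:89608673-89608702 (plus) and Rps2 at chr10:14251833-14251862 (plus).

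A pyrimidine run at exactly the annotated start was present in 23 of 61 members (37.7%), against 881 of all 33469 windows (2.63%). With the start shifted by up to 5 bases either way, 38 members (62.3%) and 17% of all windows held one. In the sequences shown, Rpl22 has the run exactly at the start and its paralog Rpl22l1 does not. Rpl3 and Rpl3l, and Rps4x and Rps4y2, all lack it at that base. With the shift, Rps4x and Rps4y2 hold a run, while Rpl22l1, Rpl3 and Rpl3l do not. Over the whole windows and on both strands, CCGGAA, the core of ETS factor sites, was in 31 of 61 members (50.8%) and 15% of all windows. ATGGCG, the core of YY1 sites, was in 20 members (32.8%) and 9.98% of all windows, GGGCGG, the GC box, in 36 members (59%) and 33.1%, and TATAAA, the TATA box, in 7 members (11.5%) and 14.2%. TCTCGCGA, a site bound by ZBTB33, was in 11 members (18%) and 0.855% of all windows. No match of one of these motifs overlapped a match of another in any member.

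The 250 bases upstream of Rps26, among the lowest members after TCP, and of Rps7, which holds both the ETS core and TCTCGCGA, are shown with every match to those motifs in capitals. They run from chr7:1643405-1643654 (minus strand) and chr6:50999446-50999695 (minus strand). The matches describe these letters alone and are no evidence of a factor's binding.
Rps26: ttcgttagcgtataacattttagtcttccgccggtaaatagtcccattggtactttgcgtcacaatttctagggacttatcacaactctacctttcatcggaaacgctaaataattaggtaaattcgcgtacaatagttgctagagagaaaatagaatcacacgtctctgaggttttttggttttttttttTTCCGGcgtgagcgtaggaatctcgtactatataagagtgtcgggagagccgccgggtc
Rps7: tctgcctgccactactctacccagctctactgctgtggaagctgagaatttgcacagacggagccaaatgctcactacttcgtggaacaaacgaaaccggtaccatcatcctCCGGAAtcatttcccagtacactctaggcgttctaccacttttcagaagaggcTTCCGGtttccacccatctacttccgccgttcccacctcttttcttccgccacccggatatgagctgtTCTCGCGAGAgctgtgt

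The arrays had 41503 to 43823 probes well above background each, and no spot was saturated. Corn oil replicate 1 was alone on its slide, and the other 5 arrays shared a slide. Genes that define proximal tubule were high (median level 6.92 over 6 genes), as the label renal cortex implies. Each array held RNA of 1 animal, and 3 against 3 arrays limit the precision of every value below. Whole tissue was used, so fewer cells of a type and less RNA per cell cannot be told apart.

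On the 75th-percentile scale, the ribosomal protein genes were slightly lower in the TCP animals almost throughout, by a median of -0.14 (interquartile range -0.18 to -0.11). Rplp2, close to that median, was at 0.9-fold. The mean was lower after TCP in 74 of 76 members (51 to 55 under 3 other scalings, below), against 59.2% of all genes tested, whose median difference was -0.038. Among other genes with levels from 5 to 9, between 83.6% and 96.1% per unit of level were lower. The members' share of 97.4% is thus nearer to that of equally bright genes than to that of all genes. None of the 76 passed limma's adjusted p under 0.05 in either direction (lowest adjusted p 0.811), and the background of genes called was 0% as well. At an unadjusted limma p under 0.05 there was 1 member lower, Rpl22l1, and 0 higher, against 3.86% of all genes lower and 1.63% higher. In 10 of 76 members every TCP animal lay below every corn oil animal, against 7.94% of all genes, and in no member did they lie above (3.84% of all genes). Among other genes with levels from 4 to 8, that share was between 15.3% and 17.3% per unit of level. It was 12.1% at levels from 3 to 4 and 6.49% at levels from 8 to 9. The members' count thus lies within the range of equally bright genes. The size of the difference depended on the scaling. The member median was -0.16 with each array's median as reference. It was -0.12 with the 75th percentile over probes well above background. Both left 74 of 76 members lower with no sign changed. Under 3 other scalings 19 to 23 single members changed sign. For each scaling the brightest probe of a gene was chosen anew, so a changed sign may come from another probe. Quantile normalization left 54 of 76 members lower, cyclic loess 51 and normexp background correction followed by quantile normalization 55, with medians of -0.032, -0.025 and -0.031 (all genes: 54.2%, 52.6% and 54% lower).

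The 76 genes varied together from animal to animal, also within each group. Each animal's position was taken as the median over members of its level minus the gene's mean over the 6 animals. It was 0.17, 0.076 and -0.026 in corn oil replicates 1, 2 and 3, and 0.02, -0.076 and -0.17 in TCP replicates 1, 2 and 3. The groups thus overlapped, as corn oil replicate 3 lay below TCP replicate 1, which was the case in 61 of 76 members taken singly. Corn oil replicate 1 was the highest animal for 63 members and TCP replicate 3 the lowest for 63. The pooled SD between animals of the same group was 0.096, so that the median difference of -0.14 was about as large as the distance between animals treated alike. Without corn oil replicate 1, the array on a slide of its own, the median difference was -0.093 with 75 of 76 members lower. Without TCP replicate 3 it was -0.1 with 72 lower, and without corn oil replicate 3 it was -0.19 with 75 lower.

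**Figure D1:**
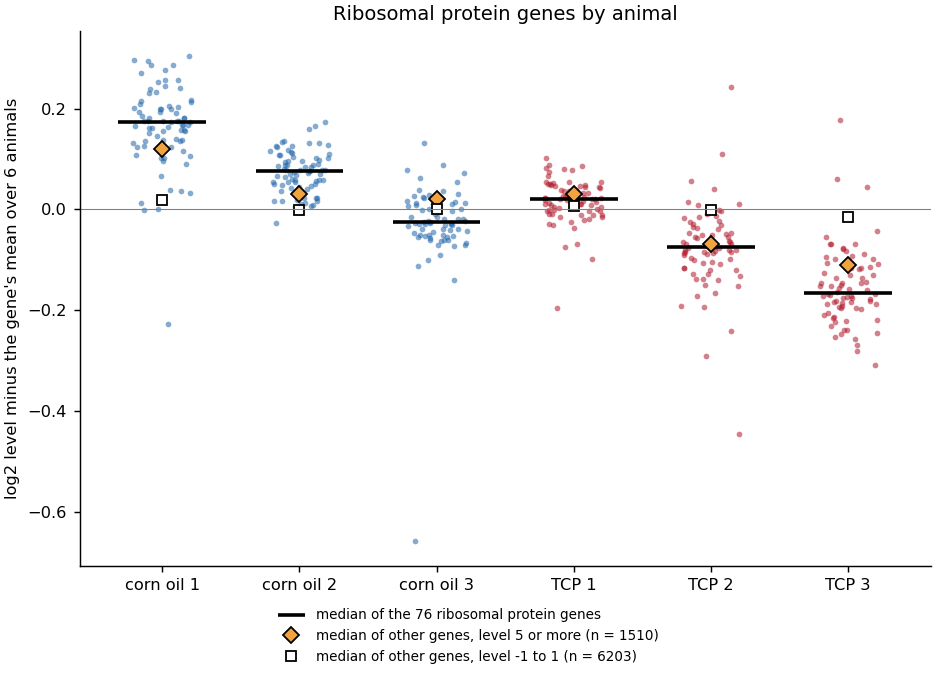
Each point is 1 of the 76 ribosomal protein genes in 1 animal, as its log2 level minus its mean over the 6 animals, with corn oil in blue and TCP in red. Black bars are member medians, diamonds the medians of 1510 other genes at levels of 5 or more, and squares those of 6203 other genes at levels from -1 to 1; member medians run from 0.17 in corn oil replicate 1 to -0.17 in TCP replicate 3, and TCP replicate 1 lies above corn oil replicate 3.

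Most probes of ribosomal protein genes were bright, and bright probes of other genes were also lower in the TCP animals. The median level of the members was 6.68, and 69 of 76 (90.8%) lay at 5 or more, where 5% of all genes lay. At levels from 5 to 6 the median difference was -0.14 for 15 members and -0.098 for 758 other genes. At levels from 6 to 7 it was -0.14 for 25 members and -0.11 for 465 other genes, and from 7 to 8 it was -0.15 for 26 members and -0.12 for 197 other genes. Other genes at levels from -1 to 0 had a median difference of 0.00036, and those at the dim end, from -5 to -4, one of -0.062. By animal, the 1510 other genes at 5 or more had median positions of 0.12, 0.03 and 0.02 in corn oil replicates 1 to 3, and of 0.031, -0.068 and -0.11 in TCP replicates 1 to 3. Corn oil replicate 1 was therefore highest and TCP replicate 3 lowest in these genes too.

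A lowess curve of the difference on the level, drawn through the other genes, served as the reference for a probe of given brightness. The members lay a median of 0.032 further down than this curve (-0.032), with 58 of 76 below it. The pooled SD between animals of that distance was 0.044, larger than the distance itself. For 68 of 76 members the distance was smaller than the member's own SE, and for 12 it exceeded 0.1 in size. The distance was -0.014 without corn oil replicate 1, -0.014 without corn oil replicate 2, -0.07 without corn oil replicate 3 and -0.021 without TCP replicate 3. Under the other scalings of the arrays it stayed between -0.036 and -0.032.

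**Figure D2:**
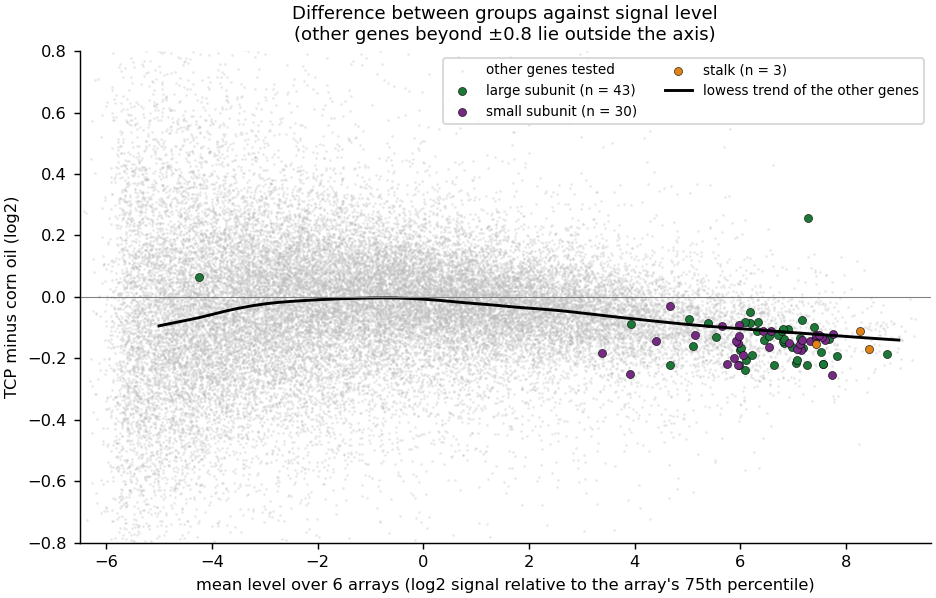
Genes tested are drawn by their mean log2 level over the 6 arrays (x axis) and their difference of TCP minus corn oil (y axis, log2). Ribosomal protein genes are coloured by subunit, with other genes in grey and their lowess trend in black. Other genes with differences beyond the y axis are not shown. The trend lies below 0 throughout, nearest to 0 at middle levels and lower at both ends, and 58 of the 76 members lie under it. Rpl19 (0.26) and Rpl3l (0.066) are the members above 0.

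Control RNAs added to each labelling, and the 3' to 5' signal of a pair of transcripts, also differed between the arrays. Adenoviral E1A spike-in RNA of the set n11 stood at 6.68, 5.90 and 5.99 in corn oil replicates 1 to 3 and at 5.89, 5.85 and 5.62 in TCP replicates 1 to 3. The log2 ratio of 3' to 5' control spots of Pgk1 was 5.54, 5.39 and 5.24 in the corn oil animals and 5.34, 5.27 and 5.12 in the TCP animals, while that of Gapdh was 2.47, 2.34 and 2.35 against 2.40, 2.28 and 2.33. Corn oil replicate 1 was the highest in all 3 of these measures, and TCP replicate 3 was the lowest in the spike-in and in Pgk1. Markers of red cells (Hbb, Alas2 and Epb42) were lower after TCP in 3 of 3 genes, with a mean level of 1.22 to 1.35 in corn oil animals and 0.87 to 1.07 in TCP animals. Markers of dividing cells were lower in 3 of 3 genes tested, with a mean level of -0.17 to -0.035 in corn oil animals and -0.69 to -0.42 in TCP animals. Lymphocyte markers were near the bottom of the scale (median level -4.77) and lower in 3 of 5. Collecting duct markers were higher after TCP in 3 of 4 genes (median 0.13; 4 of 4 with cyclic loess), with a mean level of 3.58 to 3.83 in corn oil animals and 3.79 to 3.85 in TCP animals. Hepatocyte markers were higher in 3 of 4 (median 0.68), but their mean level ran from -2.82 to 0.55 among corn oil animals and from -1.39 to 0.13 among TCP animals. Proximal tubule markers were lower in 4 of 6 (median -0.073), but in 1 to 2 under quantile, cyclic loess and normexp scaling. Macrophage markers were lower in 2 of 4, podocyte markers in 3 of 4 and endothelium markers in 2 of 3. Markers of thick ascending limb and distal tubule were lower in 2 of 4. The part of these quantities in the ribosomal protein values was not tested.

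The large subunit, which holds the peptidyl transferase centre, had a median difference of -0.14 with 41 of 43 members lower (27 to 29 under quantile, cyclic loess and normexp scaling). The small subunit, which reads the mRNA, had a median of -0.14 with 30 of 30 lower (20 to 25 under those scalings), and the stalk, which recruits elongation factors, one of -0.15 with 3 of 3 lower (2 to 3). Both subunits also had nearly the same position in each animal, for example 0.17 for each in corn oil replicate 1 and -0.16 (large) against -0.17 (small) in TCP replicate 3. The 3 paralogs had differences of -0.22, -0.18 and 0.066. By promoter, the 23 members with a pyrimidine run at the annotated start had a median difference of -0.16 (22 lower), and the 38 without it one of -0.14 (37 lower).

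**Figure D3:**
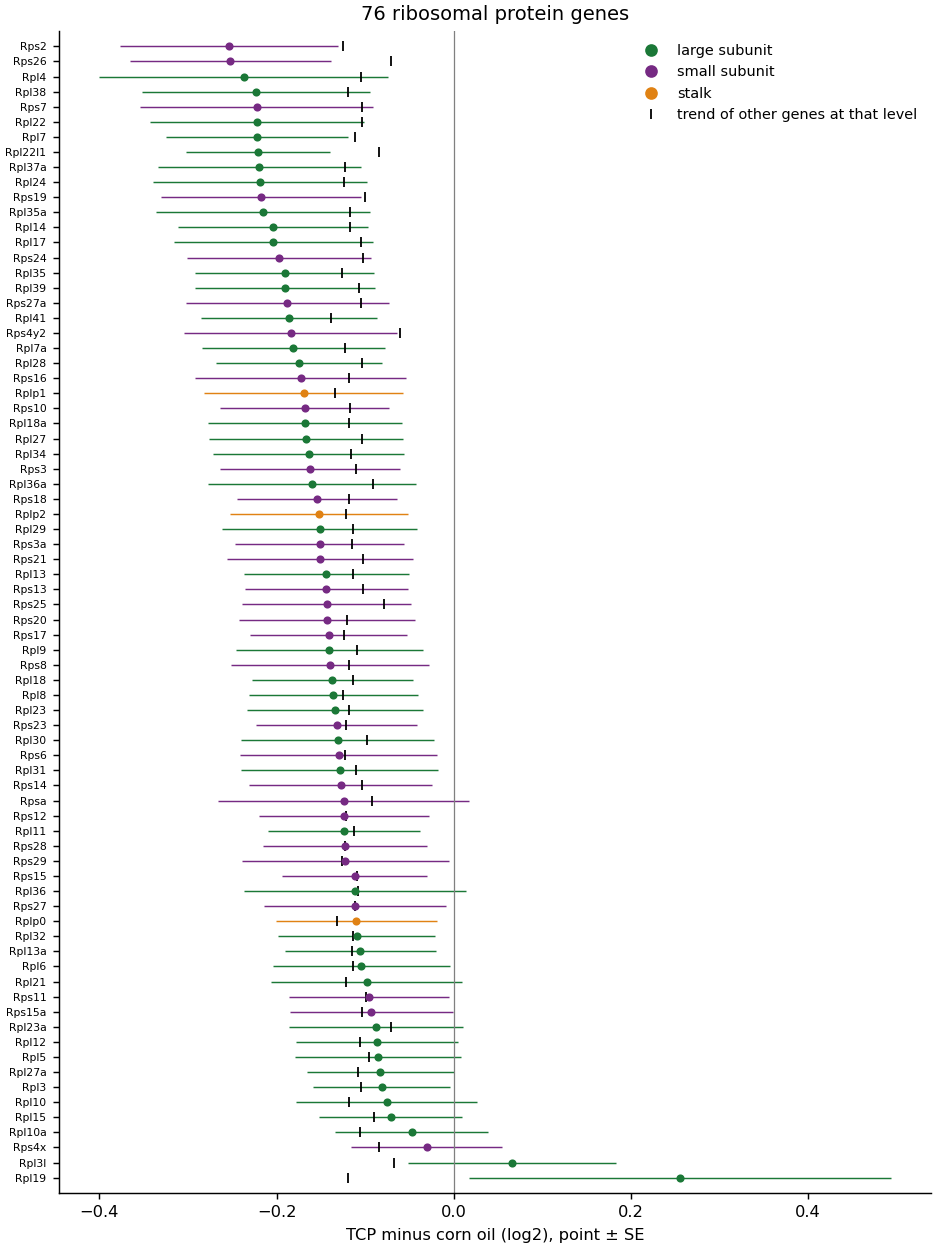
The difference of TCP minus corn oil (log2, x axis) is drawn for each of the 76 ribosomal protein genes as a point with its SE from limma, coloured by subunit and ordered by size; a black tick gives the trend of other genes at the same level. On this scale 74 points lie below 0, from Rps2 (-0.25) to Rps4x (-0.031), against 51 under cyclic loess, and the SE of most members spans the tick.

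Rpl22l1 had the smallest p of all members. It is a paralog of the large subunit protein Rpl22 and can take its place in the ribosome. Its level was 4.82, 4.81 and 4.73 in the corn oil animals and 4.58, 4.51 and 4.61 in the TCP animals, and the groups did not overlap. The difference was -0.22 ± 0.081 (SE, n = 3 per group), 0.858-fold, with an adjusted limma p of 0.811. Its other 3 probes gave -0.13, -0.1 and -0.064, in each of which the groups overlapped. Rpl22 itself stood at 6.23, 6.12 and 5.92 against 6.0, 5.86 and 5.74, a difference of the same size (-0.22 ± 0.12 SE) with overlapping groups.

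Rps26, a small subunit protein near the mRNA exit channel, had a level of 4.09, 4.09 and 3.95 with corn oil and of 3.92, 3.84 and 3.61 with TCP. All TCP values lay below all corn oil values, with TCP replicate 1 just under corn oil replicate 3. The difference was -0.25 ± 0.11 (SE), 0.84-fold, and its distance from the trend at that level was -0.18, further below the curve than any other member. Its second kept probe gave -0.33.

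Rps2, a small subunit protein at the mRNA entry channel, had the lowest difference of all, -0.25 ± 0.12 (SE). Its level was 7.91, 7.81 and 7.87 with corn oil and 7.84, 7.44 and 7.54 with TCP. TCP replicates 2 and 3 were low, while TCP replicate 1 lay within the range of the corn oil animals. This probe gave the lowest value of the 7 kept for Rps2, which ran from -0.25 to -0.095. RefSeq lists 36 -ps loci of Rps2, the most of any member, and 74 of the 76 members have at least 1 (median 11). Transcripts of near-identical copies may hybridise to the same probes, and their share of the signals was not tested.

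Rpl7, a large subunit protein, was at 6.81, 6.75 and 6.71 with corn oil and at 6.70, 6.45 and 6.45 with TCP. The groups nearly touched without overlapping, and the difference was -0.22 ± 0.1 (SE). Its other kept probes gave -0.055 and -0.052, both with overlapping groups. Rps19, a small subunit protein mutated in Diamond-Blackfan anaemia, was at 6.01, 5.89 and 5.69 against 5.75, 5.61 and 5.58, with a difference of -0.22 ± 0.11 (SE). Rpl37a, of the large subunit, was at 7.81, 7.65 and 7.53 against 7.58, 7.42 and 7.34, with a difference of -0.22 ± 0.11 (SE). In both of these, TCP replicate 1 lay above corn oil replicate 3. The adjusted limma p was 0.811 for Rps26, Rps2, Rpl7, Rps19 and Rpl37a alike. The 5 other scalings each chose a gene's brightest probe anew. Under them Rpl22l1, Rps26, Rps2, Rps19 and Rpl37a kept a negative difference, while Rpl7 was at 0.068 with normexp. Whether that value of Rpl7 came from another of its probes was not tested. With cyclic loess the differences were -0.19 for Rps26, -0.14 for Rpl22l1 and -0.12 for Rps2, smaller than on the 75th-percentile scale.

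**Figure D4:**
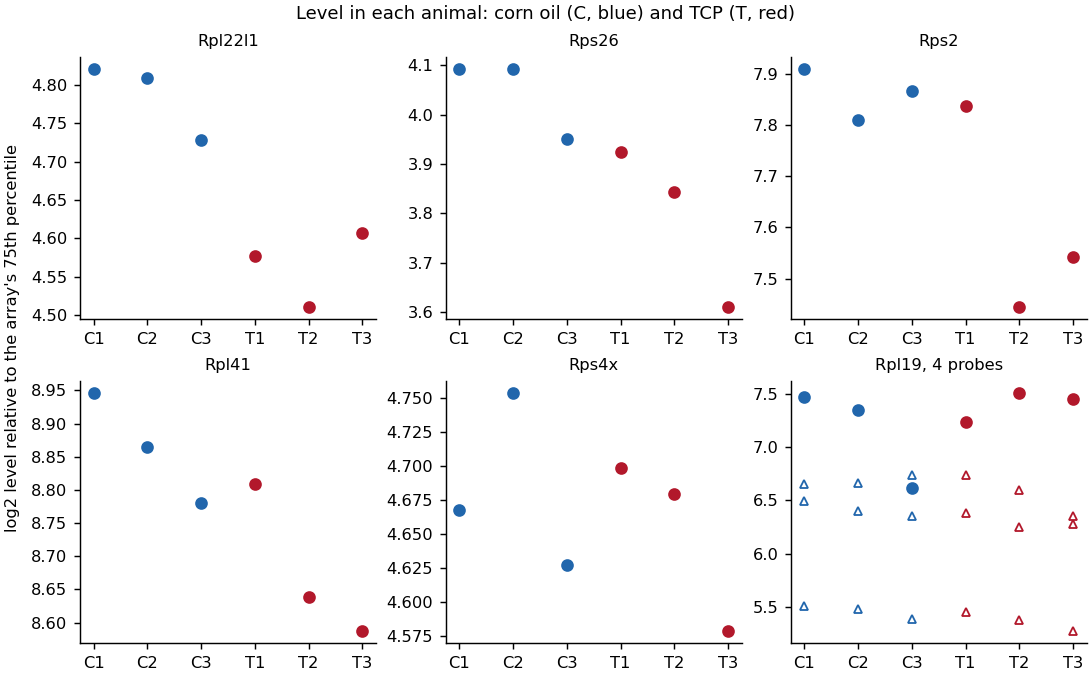
The log2 level of 6 ribosomal protein genes is drawn for each animal (C1 to C3, corn oil, blue; T1 to T3, TCP, red), each panel on its own axis. Rpl22l1 and Rps26 show no overlap of the groups, Rps2, Rpl41 and Rps4x do overlap, and for Rpl19 filled circles give the brightest probe, with corn oil replicate 3 at 6.61, and open triangles its other 3 probes.

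The 5 members with the brightest probes had differences from -0.19 to -0.11, on both sides of the median of all members. Rpl41, the smallest protein of the ribosome, was at 8.95, 8.86 and 8.78 with corn oil and at 8.81, 8.64 and 8.59 with TCP, a difference of -0.19 ± 0.1 (SE). Rplp1 was at 8.66, 8.45 and 8.47 against 8.49, 8.35 and 8.22 (-0.17 ± 0.11 SE), and Rplp2, its partner in the stalk, at 7.62, 7.47 and 7.43 against 7.47, 7.33 and 7.26 (-0.15 ± 0.1 SE). Rplp0, the stalk's base and often used as a reference gene, was at 8.42, 8.28 and 8.25 against 8.27, 8.21 and 8.13 (-0.11 ± 0.091 SE). In each of these, TCP replicate 1 lay above corn oil replicate 3 and the groups overlapped. The sign of Rplp0 was positive with quantile normalization (0.002) and cyclic loess (0.039), while Rpl41, Rplp1 and Rplp2 stayed negative under every scaling tried. Rpl35 had a difference of -0.19 ± 0.1 (SE). Rps29 had one of -0.12 ± 0.12 (SE), and TCP replicate 3, at 7.48, was the only TCP animal below the corn oil range. Its difference was 0.0049 with quantile normalization and 0.017 with cyclic loess.

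Rps6, Rpl5, Rpl11 and Rpsa, named whatever their values, had differences from -0.13 to -0.086. Rps6, the small subunit protein phosphorylated by S6 kinases, was at 7.75, 7.59 and 7.5 with corn oil and 7.62, 7.43 and 7.40 with TCP, a difference of -0.13 ± 0.11 (SE). Rpl5 (-0.086 ± 0.094 SE) and Rpl11 (-0.12 ± 0.086 SE), which together with 5S ribosomal RNA bind Mdm2 when ribosome assembly is disturbed, both had overlapping groups. Rpl5 had a positive difference with quantile normalization (0.014), cyclic loess (0.0064) and normexp (0.024), Rpl11 with quantile normalization (0.0033) and normexp (0.015), and Rps6 with cyclic loess (0.0048). Rpsa, also known as the laminin receptor, was at 5.43, 5.11 and 5.07 against 5.15, 5.2 and 4.89 (-0.12 ± 0.14 SE). Corn oil replicate 1 alone stood high, and the other 5 animals did not separate by group.

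Rpl3, whose protein reaches towards the peptidyl transferase centre, was at 6.12, 6.11 and 6.16 with corn oil and 6.09, 6.04 and 6.02 with TCP. The groups did not overlap, and the difference was -0.081 ± 0.077 (SE), with an SD of 0.029 (n = 3) among corn oil animals and 0.034 (n = 3) among TCP animals. The second kept probe of Rpl3 gave -0.018, with overlapping groups. Rpl3l, the striated muscle form of Rpl3, was near the bottom of the scale in every animal, from -4.47 to -4.13, and its difference was 0.066 ± 0.12 (SE). Rps4x, the small subunit protein encoded on the X chromosome, was at 4.67, 4.75 and 4.63 against 4.70, 4.68 and 4.58, with a difference of -0.031 ± 0.086 (SE), the nearest to 0 among the members. Under quantile normalization, cyclic loess and normexp, Rpl3 was at 0.028, 0.024 and 0.0038, and Rps4x at 0.069, 0.048 and 0.064. Its paralog Rps4y2 was at 3.68, 3.39 and 3.37 against 3.40, 3.20 and 3.29 (-0.18 ± 0.12 SE), and its second, dimmer probe gave 0.088 with a corn oil value as low as -0.61.

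Rpl19 was the member with the highest difference, 0.26 ± 0.24 (SE), and the only bright one above 0. Its brightest probe read 7.47, 7.35 and 6.61 in the corn oil animals and 7.24, 7.51 and 7.45 in the TCP animals, and the low value of corn oil replicate 3 set the sign. Its other 3 probes gave -0.09, -0.11 and -0.12, close to the remaining members, and in none of them was corn oil replicate 3 low to this degree. The direction of Rpl19 is therefore that of 1 probe on 1 array. Over all 229 kept member probes, 221 were lower after TCP and 8 higher, with a median of -0.13. Of the 70 members with several kept probes, 7 had probes of opposite sign (Rpl10a, Rpl19, Rpl28, Rpl6, Rpl7a, Rplp0 and Rps4y2, named after their values were seen), and the median range between a gene's probes was 0.063.

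Rpl28 had the widest range of probes, as 3 of them gave -0.17, -0.15 and -0.14 and a dim one gave 0.52, where TCP replicate 2 read -3.43 while the remaining 5 animals spanned -4.89 to -4.39. Rpl12 had probes at -0.087 and -0.086 and others at -0.25 and -0.43, the last with groups that did not overlap. The difference of Rpl12 was 0.02, 0.021 and 0.021 under quantile normalization, cyclic loess and normexp. Rpl4 (named after its values were seen) had a difference of -0.24 ± 0.16 (SE) that came from TCP replicate 2, at 5.64 against 6.12 to 6.36 in the other 5 animals, and its second probe gave -0.016.

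Genes that work with the ribosome were compared in the same fit, and in no list did a gene pass limma's adjusted p under 0.05. Fau and Rack1, which encode ribosomal proteins under other names, had differences of -0.12 ± 0.081 (SE) and -0.0024 ± 0.09 (SE), and with cyclic loess both were positive (0.019 and 0.071). Mitochondrial ribosomal protein genes, which serve translation in mitochondria, were lower in 55 of 67 (median -0.097; 45 to 46 under quantile, cyclic loess and normexp scaling). Their brightness was lower (median level 3.24), and their median distance from the trend was -0.03, nearly that of the cytosolic members. Mrpl22 had the smallest p of that list (-0.25 ± 0.083 SE, unadjusted limma p 0.023, adjusted limma p 0.811). Of the predicted -ps and -like loci that the membership left out, 6 were tested and 5 were lower (median -0.15). They include Rpl37l1 (-0.21 ± 0.12 SE) and Rpl36al1 (-0.26 ± 0.12 SE), named after their values were seen. Whether these probes read mRNAs of further ribosomal protein genes was not tested.

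Translation initiation factors were lower in 22 of 31 (median -0.049; 11 to 14 under those scalings), and elongation and termination factors in 11 of 14 (median -0.042; 8 under each of them). Eef1a1 and Eef2, elongation factors whose mRNAs also carry a TOP tract, had positive differences under every scaling tried, here 0.098 ± 0.093 (SE) and 0.07 ± 0.089 (SE), against a trend of -0.11 and -0.095 at their levels of 6.8 and 5.36. Eef1a1 was at 6.86, 6.74 and 6.65 with corn oil and 6.89, 6.78 and 6.87 with TCP, so the groups overlapped. Other elongation factor genes were on the opposite side, with Eef1g at -0.11 ± 0.086 (SE) and Eef1b2, named after its values were seen, at -0.15 ± 0.12 (SE). The smallest p of that list belonged to Gspt1 (-0.15 ± 0.093 SE) and Dohh (-0.16 ± 0.099 SE), both with an adjusted limma p of 0.811. Ribosome assembly factors were lower in 17 of 32 (median -0.0091; 14 to 15 under those scalings), and Nop56, a core protein of box C/D snoRNPs, was at 3.13, 2.98 and 3.15 with corn oil against 2.82, 2.77 and 2.76 with TCP. Its difference of -0.3 ± 0.088 (SE) had an unadjusted limma p of 0.013 and an adjusted limma p of 0.811. Dkc1, with the next smallest p of that list, was higher by 0.2 ± 0.097 (SE), and its groups did not overlap. RNA polymerase I genes were lower in 8 of 13 (median -0.04, and 6 to 8 under those scalings). Rrn3, an initiation factor of that polymerase, was dim (level -3.2) and higher by 0.4 ± 0.15 (SE, adjusted limma p 0.811), with overlapping groups. Polr1d (-0.18) and Polr1g (-0.18) were lower, with groups that did not overlap. Genes of mTORC1 and the S6 kinases were lower in 13 of 25 (median -0.0007; 9 to 10), with Rps6kb1, which phosphorylates Rps6, at -0.13 ± 0.1 (SE) and Mtor at 0.12 ± 0.13 (SE).

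**Figure D5:**
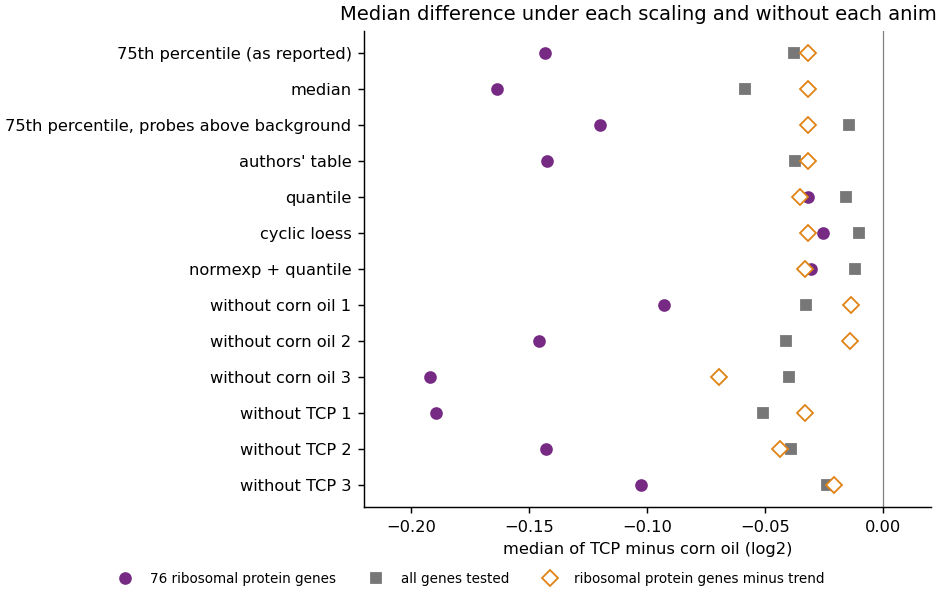
Medians of TCP minus corn oil (log2, x axis) are drawn for the 76 ribosomal protein genes (circles), all genes tested (squares) and the members' distance from the level trend (diamonds), for each scaling of the arrays and without each animal in turn. The member median runs from -0.19 without corn oil replicate 3 to -0.025 with cyclic loess, and the distance from the trend from -0.07 to -0.014.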

How the data were processed

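The authors quantified the Cy3 arrays with Agilent Feature Extraction (10.7 in the submitters' processing notes, 10.7.1.1 in the headers). Their deposited intensity is linear, and the processed signal is the spot brightness after background subtraction and detrending by that software. Levels are log2 of it minus the array's 75th percentile over 61537 non-control probes. Accessions were matched to RefSeq symbols (GRCr8): 28206 probes had 1 symbol, 33331 none. The array design refers to rn4, per the file headers, so the promoter coordinates printed are those of GRCr8 alone. Probes well above background on at least 3 of 6 arrays were kept (43099; 18438 removed), 77 outlier spots were set missing, and each gene is its kept probe with the highest mean level. Groups were compared with limma 3.58.1 (R 4.3.3), two-sided, adjusted by Benjamini-Hochberg over 31637 genes, after the script was tested on simulated data. The trend was a lowess curve (span 0.2) over genes that are no ribosomal protein. Each alternative scaling chose the brightest probe of a gene anew.

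Members, lists and alternatives were chosen with earlier results of these data known. Named genes comprise the 6 of smallest p per direction (only 2 members were higher), the 5 brightest, the 3 dimmest, the stalk genes, Rpsa, Rps6, Rpl3, Rpl5, Rpl11, the paralog pairs and the 3 with the widest range of probes. Of each related list, Fau, Rack1, Eef1a1, Eef2, Rps6kb1, Mtor and some genes of smallest p are named; Larp1 was matched by no probe. Some items are not reported here. Same-numbered animals were not paired by the labels.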

Additional observations from a re-analysis of the deposited data

How the results depend on the processing

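No ribosomal protein gene and no gene of the related lists passed limma's adjusted p under any alternative. The ribosomal protein median of -0.14 moved to -0.032 with quantile normalization, -0.025 with cyclic loess and -0.031 with normexp (offset 50) followed by quantile normalization. The median of all genes, -0.038, moved to -0.010 with cyclic loess, -0.015 with the 75th percentile over probes well above background, and -0.012 with normexp. These scalings force the brightness distributions of the arrays together, or change the reference percentile, by construction. Leaving out each animal in turn gave ribosomal protein medians from -0.19 to -0.093, all-gene medians from -0.051 to -0.024, and distances from the trend from -0.07 to -0.014. With the slide as a block, which equals leaving out corn oil replicate 1, the distance was -0.013. The authors' table, other filters, outlier spots kept and a trended robust eBayes gave 74 of 76 members lower with no sign changed. The same held for the median of each array and the 75th percentile over probes well above background. The mean of all kept probes also gave 74, with 2 signs changed, and every kept probe taken singly gave 221 of 229 lower. The deviations of same-numbered animals correlated at 0.086, -0.051 and -0.044. Differently numbered animals were not compared, so these values cannot decide whether the numbers pair the animals. With the replicate block the median was -0.14 and the lowest adjusted limma p among the members 0.753. Normexp used the median spot signal in place of the mean. With 3 animals a group, the SE of a typical member (median 0.1) is of the size of the differences themselves, so differences of this size could not be resolved gene by gene.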
